A study of Mus musculus with 4 samples.

Results

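The 9 genes described here, of 18193 named on the array, encode receptors through which a cell could sense progesterone and related steroids, and 1 receptor partner (Serbp1). They were chosen by symbol from the platform annotation, and 28 of the 45037 non-control probe sets on the array named 1 of them as their single gene. The RNA came from mouse helper T lymphocytes (CD4+ T cells), which were naive when isolated from the spleen and from peripheral and mesenteric lymph nodes. The group given TGFb1 (hTGFb1 in the labels) at 1 ng/ml with progesterone at 2000 ng/ml had 2 arrays, and the group given the same TGFb1 alone had 2. Both groups also received concanavalin A at 2.5 ug/ml, a lectin that activates T cells, in RPMI medium with 10% serum, and culture lasted 7 days. Strain, sex, age and number of animals are not given in the sources used here, and neither is whether replicates were separate cultures, so a p-value here covers the spread among these 4 arrays, which may be technical. The question set for these genes was which receptors the cells could use, and whether their transcripts differed when progesterone was present.

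Progesterone classically acts through the progesterone receptor Pgr, a transcription factor that binds DNA once it holds hormone. It also binds the glucocorticoid receptor Nr3c1 and the mineralocorticoid receptor Nr3c2, close relatives of Pgr that recognise the same DNA element. The oestrogen receptor Esr1 belongs to the same superfamily and is known to drive Pgr transcription in reproductive tissues. Outside the nucleus, the membrane progestin receptors Paqr7 and Paqr8 bind progesterone at the cell surface. The haem-binding proteins Pgrmc1 and Pgrmc2 are linked to membrane responses to progesterone, and Serbp1, an RNA-binding protein, is a known partner of Pgrmc1. T lymphocytes are known for strong glucocorticoid responses through Nr3c1.

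Sex-linked RNA differed between the groups. Xist, made from the inactive X chromosome, had deposited signals of 1390 and 825 in the progesterone arrays against 9.52 and 9.70 in the TGFb1 arrays, and the Y-linked gene Eif2s3y had 4.25 and 0.49 against 689 and 727. The Y-linked genes Kdm5d and Uty went the same way as Eif2s3y. Kdm5d had 0.20 and 4.04 against 261 and 240, and Uty had 1.42 and 3.15 against 150 and 174. This is the RNA pattern of female cells in the progesterone arrays and of male cells in the TGFb1 arrays, although the labels give no sex. Pgrmc1 lies on the X chromosome. Progesterone and the sex and donors of the cells therefore cannot be told apart in any value below. Of 8 measured CD4 T cell markers 8 lay above the level filter and none passed the test. Their summed normalised signal was 25768 and 26045 in the progesterone arrays and 24819 and 25831 in the TGFb1 arrays. Cd4 itself was lower in both progesterone arrays, at 1681 and 1670 against 1961 and 2290, as was Cd5. Cd3d, Cd3e, Cd3g, Lat and Icos were higher in both after normalisation, and Cd28 overlapped. As deposited Cd3d, Cd3e, Cd3g and Lat were instead lower in both. The sum of 8 myeloid markers was 948 and 1097 against 409 and 230. Lyz2 (lysozyme), the member that passed the test, gave 685 and 771 of it against 173 and 54.1. Cd14, Adgre1, Cd68, Mpeg1 and Itgax were also higher in both progesterone arrays, Itgam was lower in both, and Csf1r overlapped. The sum of 6 B cell markers was 1978 and 1937 against 3228 and 3848. Most of it was the immunoglobulin gene Ighm, the member that fell, at 1774 and 1817 against 3104 and 3744. Ms4a1, Cd79a and Blk were instead higher in both progesterone arrays, and Cd79b and Pax5 overlapped. The sum of 6 stroma markers was 253 and 278 against 538 and 434. Most of it was Pecam1, an adhesion molecule of endothelium and of some leukocytes, at 189 and 225 against 488 and 361. Pecam1 fell by 0.97 on the log2(signal + 16) scale (adjusted p = 0.0187 by limma). The other stroma markers were under the level filter and overlapped between groups. The part of these cells in any result below was not tested. In a mixed culture fewer cells of a type and less RNA per cell cannot be told apart.

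Levels below are MAS5 signals after quantile normalisation, unless called deposited. The percentile of a probe set among all 45037 within an array does not depend on scaling. Probes differ in how well they bind, so the signals of different probe sets do not rank transcripts by abundance. As a description of dim signals, 55 probe sets of 36 genes known for other tissues, such as liver, heart and retina, were read out. Their median signal was 6.84, their 95th percentile was 35.5 and their highest was 78.6 (Pomc). A level filter at the median of all probe sets, 24.8, kept 19 of the 28 receptor probe sets, from 7 of the 9 genes. No probe set of Pgr or Nr3c2 was kept. Of the 28, 18 lay above the 95th percentile of the tissue-restricted probe sets and 12, from Nr3c1, Pgrmc1, Pgrmc2, Serbp1 and Paqr7, lay above their highest.

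**Figure D1:**
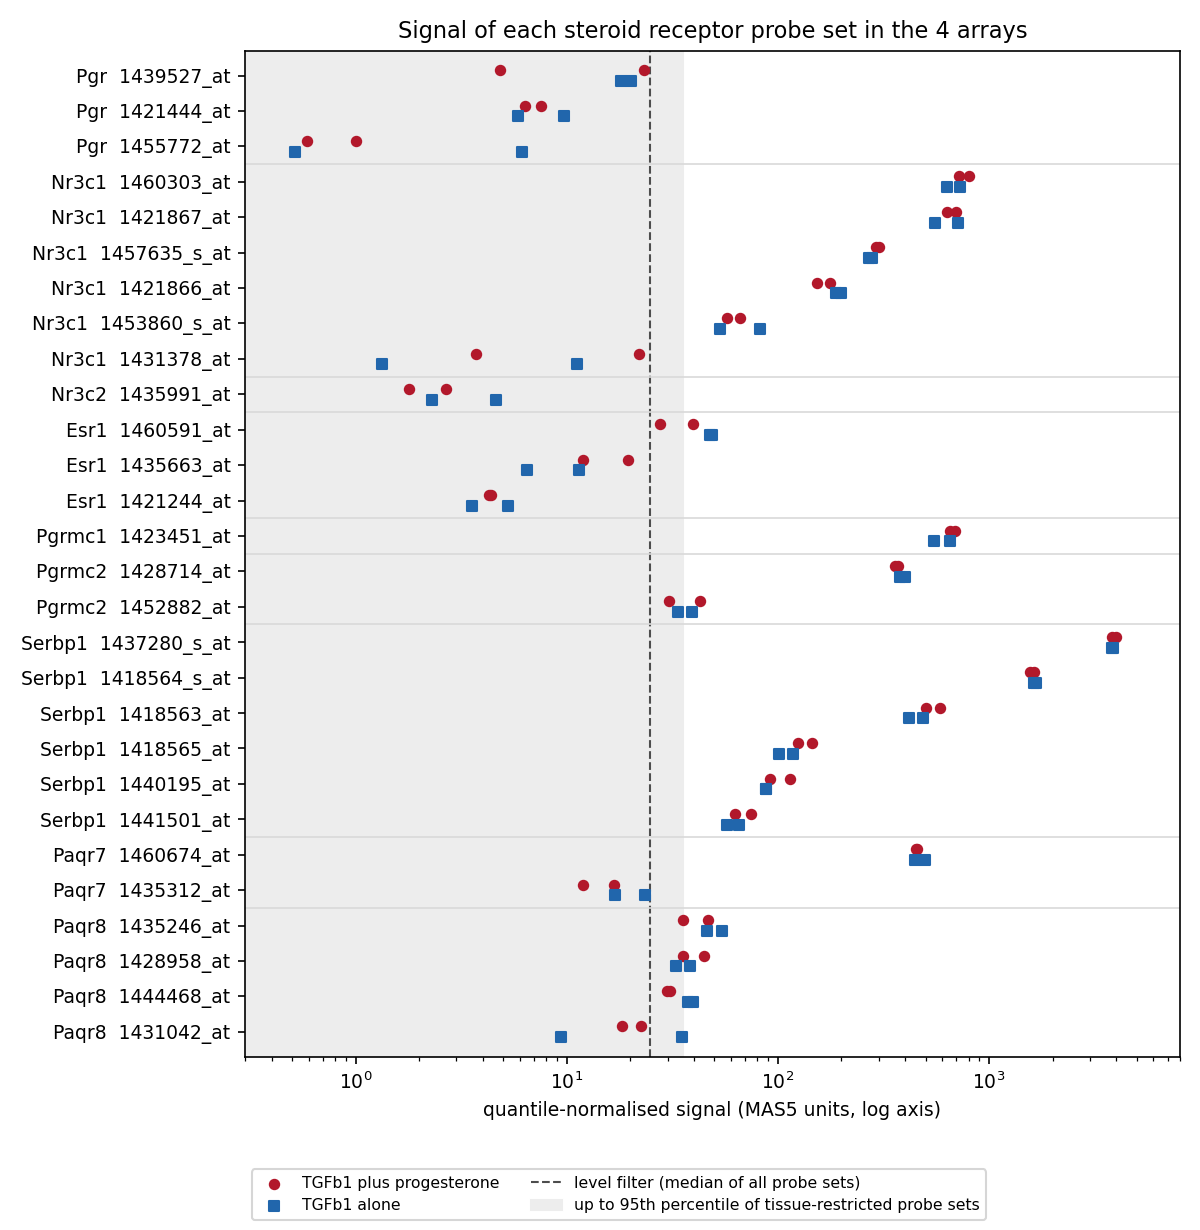
Quantile-normalised signal (MAS5 units, log axis) of each of the 28 receptor probe sets, grouped by gene, in the 2 TGFb1 plus progesterone arrays (circles) and the 2 TGFb1 alone arrays (squares). The dashed line is the level filter at 24.8 and the grey area ends at 35.5, the 95th percentile of the tissue-restricted probe sets; all 3 Pgr probe sets and the Nr3c2 probe set lie inside it.

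The nuclear progesterone receptor Pgr was dim on each of its 3 probe sets. Probe set 1439527_at had signals of 4.85 and 23.3 in the progesterone arrays and 18.1 and 20.2 in the TGFb1 arrays. Probe set 1421444_at had 6.34 and 7.55 against 5.85 and 9.73, and 1455772_at had 1.00 and 0.59 against 0.52 and 6.15. The groups overlapped on all 3, and no array placed any of them above percentile 48.2. Their means of 16.6, 7.37 and 2.06 lay within the range of the tissue-restricted probe sets. With no level filter their differences, taken as progesterone minus TGFb1 alone in units of log2(signal + 16), were -0.30 ± 0.36, -0.05 ± 0.20 and -0.19 ± 0.18 (SE, n = 2 each), with adjusted p = 0.775, 0.953 and 0.709 by limma. This scale understates the change of dim probe sets. The widest of the 3 intervals, that of 1439527_at, ran from -1.15 to 0.56 (95%). With 16 added to signals this dim, a 2-fold lower signal was not excluded on any of the 3. Nor was a 2-fold higher signal excluded on 1421444_at and 1455772_at.

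The glucocorticoid receptor Nr3c1 (chromosome 18) was bright. Its brightest probe set, 1460303_at, had signals of 724 and 807 in the progesterone arrays and 633 and 731 in the TGFb1 arrays, between percentiles 92.6 and 94.4. The groups overlapped, and the difference was 0.16 ± 0.12 (SE) with an adjusted p = 0.478 and a 95% interval of -0.12 to 0.45. Probe set 1421867_at, at 699 and 630 against 552 and 709, also overlapped between groups. On 1457635_s_at both progesterone arrays were the higher, at 302 and 290.5 against 277 and 269, and on 1421866_at both were the lower, at 176 and 153 against 189 and 199. Probe set 1453860_s_at had 66.1 and 57.5 against 82.5 and 53.0. Over these 5 kept probe sets the differences ran from -0.22 to 0.16, with 3 above and 2 below 0, and none passed the test. The sixth, 1431378_at, was dim and scattered, at 3.73 and 22.05 against 1.34 and 11.2. The Nr3c1 probe sets thus disagreed in sign, whereas with the values as deposited all 5 kept ones were below 0, from -0.43 to -0.14.

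The mineralocorticoid receptor Nr3c2 (chromosome 8) had a single probe set, 1435991_at, with signals of 1.78 and 2.67 in the progesterone arrays and 2.31 and 4.60 in the TGFb1 arrays. It stayed between percentiles 8.79 and 18.2, below the median of the tissue-restricted probe sets. Its difference with no filter was -0.09 ± 0.15, with an adjusted p = 0.854. The oestrogen receptor Esr1 (chromosome 10) had 1 of 3 probe sets above the filter. On that one, 1460591_at, the progesterone arrays had 27.6 and 39.4 and the TGFb1 arrays 47.5 and 48.8, so the groups did not overlap. The difference was -0.38 ± 0.23 (adjusted p = 0.393), the lowest value among the 19 kept receptor probe sets, and its interval ran from -0.92 to 0.16. The Esr1 probe set 1435663_at went the other way without overlap, at 19.6 and 12.0 against 11.5 and 6.45, and 1421244_at was at 4.29 and 4.38 against 3.54 and 5.29. The mean signal of 1460591_at, 40.8, lay above the 95th percentile of the tissue-restricted probe sets and under their highest.

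Pgrmc1 had a single probe set, 1423451_at, with signals of 655 and 690 in the progesterone arrays and 546 and 651 in the TGFb1 arrays, between percentiles 91.4 and 93.3. The groups did not overlap but lay close. The difference was 0.17 ± 0.12 (adjusted p = 0.478), with an interval of -0.12 to 0.46. Its paralog Pgrmc2 (chromosome 3) had 372 and 357 in the progesterone arrays and 401 and 378 in the TGFb1 arrays on 1428714_at, again without overlap, at a difference of -0.09 ± 0.12 (adjusted p = 0.711). The dim Pgrmc2 probe set 1452882_at had 42.6 and 30.5 against 39.2 and 33.7, a difference of 0.00 ± 0.24. Neither paralog passed the test.

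Serbp1 (chromosome 6) was bright, and all 6 of its probe sets were kept. Probe set 1437280_s_at had 3985 and 3816 in the progesterone arrays and 3833 and 3865 in the TGFb1 arrays, above percentile 99.1 in each array. Its difference of 0.02 ± 0.07 (adjusted p = 0.907) had the narrowest interval of the kept receptor probe sets, -0.14 to 0.18. On 1418564_s_at the signals were 1560 and 1633 against 1624 and 1675, which overlapped. On 1418563_at the progesterone arrays had 584 and 503 and the TGFb1 arrays 420 and 487, with a difference of 0.25 ± 0.13. That probe set had the lowest adjusted p of all kept receptor probe sets, 0.325. Probe set 1418565_at had the highest difference, 0.27 ± 0.17 (adjusted p = 0.408), with 125 and 146 against 102 and 117. The 2 remaining, 1440195_at and 1441501_at, were at 0.19 and 0.13 with mean signals of 95.4 and 65.0. Both progesterone arrays were the higher on 1418563_at, 1418565_at and 1440195_at, and as deposited on 1440195_at alone of these.

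Of the membrane progestin receptors, Paqr7 had a probe set above the highest of the tissue-restricted ones and Paqr8 had none. Paqr7 (chromosome 4) had signals of 453 and 456 in the progesterone arrays and 446 and 499 in the TGFb1 arrays on 1460674_at, between percentiles 89.5 and 90.6. The TGFb1 arrays enclosed the progesterone arrays, and the difference was -0.05 ± 0.12 (adjusted p = 0.847), with an interval of -0.33 to 0.23. Its other probe set, 1435312_at, was under the filter at 12.0 and 16.7 against 16.9 and 23.6. Paqr8 (chromosome 1) lay near the filter on each of its 4 probe sets. Probe set 1435246_at had 46.6 and 35.6 in the progesterone arrays and 45.9 and 54.5 in the TGFb1 arrays, 1428958_at had 44.5 and 35.4 against 38.3 and 32.8, and 1444468_at had 30.8 and 29.8 against 39.7 and 37.4. The groups did not overlap on the last of these. The differences of the 3 kept Paqr8 probe sets were -0.22, 0.12 and -0.24, with adjusted p = 0.622, 0.820 and 0.594. The fourth, 1431042_at, had 22.4 and 18.2 against 35.1 and 9.39. None of the 4 Paqr8 signals reached the highest of the tissue-restricted probe sets.

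Signals above the highest of the tissue-restricted probe sets were thus found for Nr3c1, Pgrmc1, Pgrmc2, Serbp1 and Paqr7, and none for Pgr, Nr3c2, Esr1 or Paqr8. That highest value is a single probe set, of Pomc. Above the 95th percentile of the tissue-restricted probe sets Esr1 had 1 probe set and Paqr8 had 2, whereas Pgr and Nr3c2 had 0. No detection call was used, and a dim probe set may bind its transcript poorly, so a low signal does not show that a transcript was missing. Protein and hormone binding were not measured.

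Across the 19 kept probe sets none passed at an adjusted p under 0.05 by limma, and none had an unadjusted p under 0.05 (21.4% of all kept probe sets did), the lowest being 0.098. Of all 22518 kept probe sets 1373, or 6.1%, passed, with 539 up and 834 down, so a count of 0 of 19 is near that background and is not a result about receptors. With the values as deposited that split was 289 up and 1313 down. Of the 19 differences 10 were above and 9 below 0, with a median of 0.02 against 0.03 over all kept probe sets. The groups did not overlap on 9 of the 19, 5 higher and 4 lower, against 53.3% of all kept probe sets. Serbp1 1418563_at, 1418565_at and 1440195_at were among the higher, so these counts are of probe sets and not of genes. With 4 arrays an exact permutation test of a single value, two-sided, cannot give a p below 0.333. On the log2(signal + 16) scale the 95% intervals of all 19 lay inside 2-fold in either direction, also with the values as deposited, and those of 12 lay inside 1.5-fold. That scale narrows the intervals of dim probe sets. With a pseudocount of 0 the intervals of 16 lay inside 2-fold, and those of Esr1 1460591_at (-1.32 to 0.23) and of Paqr8 1435246_at (-1.01 to 0.42) and 1444468_at (-1.15 to 0.45) did not, so a 2-fold lower signal was not excluded for them. The 10 receptor probe sets in the upper 25% by signal had intervals between 0.67-fold and 1.48-fold of signal + 16, and all 10 also lay inside 2-fold with a pseudocount of 0. With 2 arrays per group a change within these intervals may be missed. With no filter none of the 28 passed, against 1.19% of all probe sets.

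**Figure D2:**
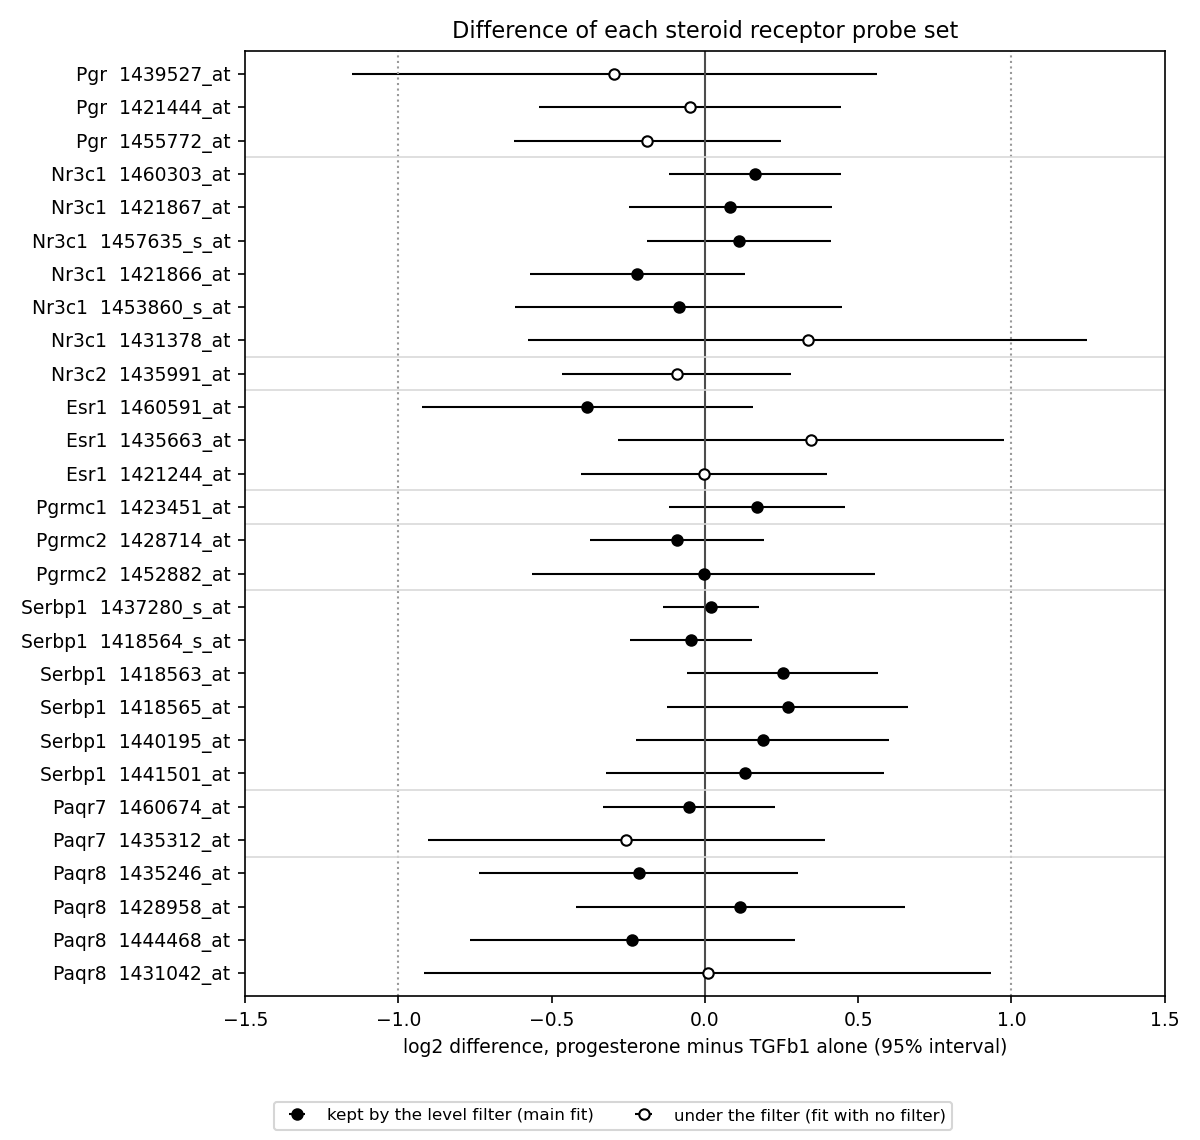
Log2 difference, progesterone minus TGFb1 alone, in units of log2(signal + 16), for each receptor probe set, with its 95% interval from the limma fit (n = 2 arrays per group). Filled points passed the level filter; open points come from the fit with no filter; dotted lines mark 2-fold on that scale. Every interval contains 0.

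The sign of most bright probe sets depended on scaling. Mean signals trimmed by 2% at each end were 138 and 108 in the progesterone arrays and 155 and 145 in the TGFb1 arrays. With the values as deposited the median difference of all 22518 kept probe sets was -0.16, and all 10 receptor probe sets in the upper 25% were below 0, from -0.49 to -0.08. Deposited signals of Nr3c1 on 1460303_at were 716 and 616 in the progesterone arrays against 733 and 800 in the TGFb1 arrays, and those of Pgrmc1 were 649 and 527 against 631 and 703. For Paqr7 on 1460674_at they were 451 and 355 against 510 and 541, which did not overlap. As deposited the groups did not overlap on 8 of the 19, against 51.8% of all kept probe sets. On 7 of these the progesterone arrays were lower, as on 37.9% of all. With each array scaled to a common trimmed mean the median of all was 0.10 and that of the 19 was 0.09. No receptor probe set passed under either scaling.

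**Figure D3:**
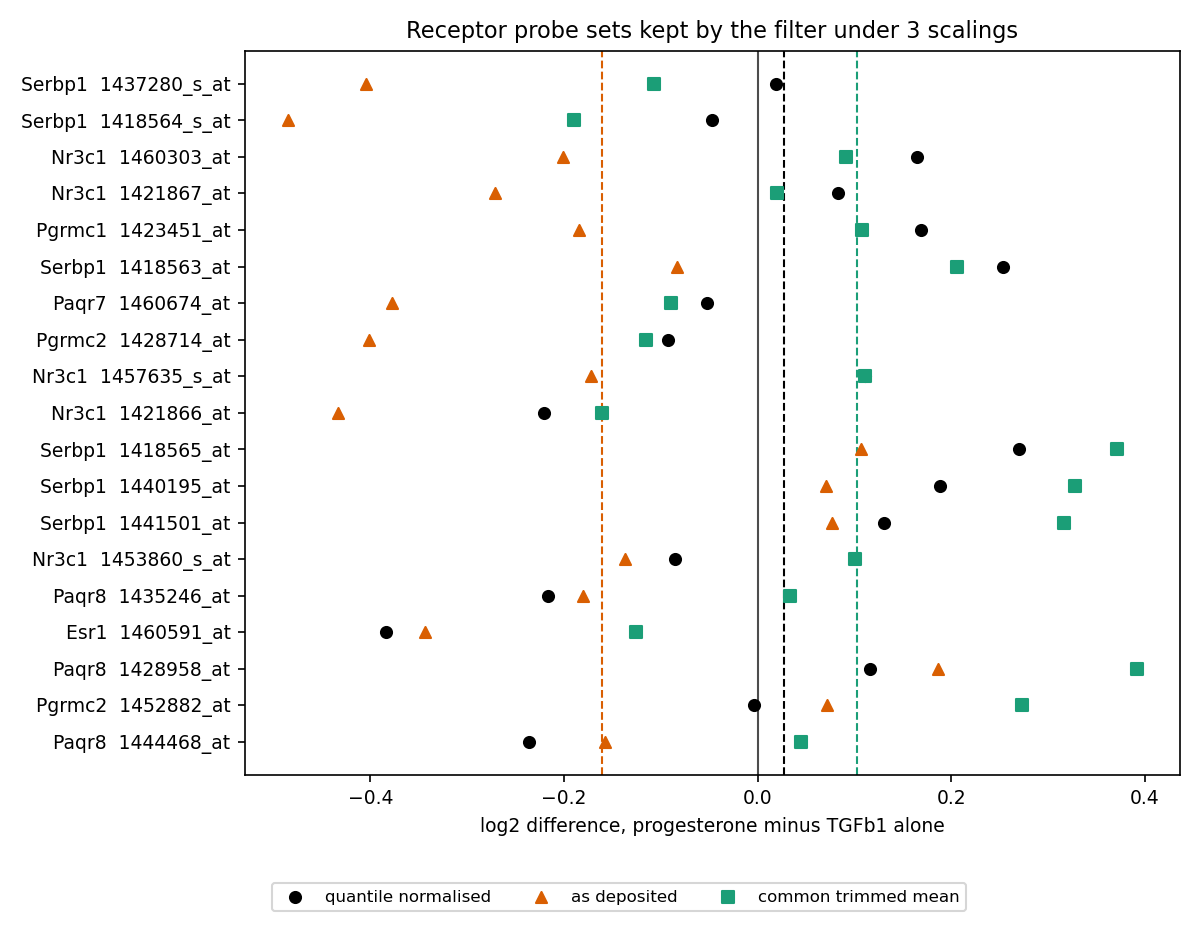
Log2 difference, progesterone minus TGFb1 alone, of the 19 kept receptor probe sets, ordered by signal with the brightest at the top, after quantile normalisation (circles), as deposited (triangles) and with arrays scaled to a common trimmed mean (squares). Dashed lines of the same colour give the median of all 22518 kept probe sets, 0.03, -0.16 and 0.10. The receptor values did not all shift with these medians. In the same order Serbp1 1437280_s_at was at 0.02, -0.40 and -0.11. Paqr8 1428958_at was at 0.12, 0.19 and 0.39.

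The upstream sequences of all members but Nr3c1, 8 of the 9 genes, were taken from RefSeq (GRCm38.p6), with 11 starts in all. They are described because the genes differ widely in signal. The counts below are over the 250 bases before each start, where the median of all 32851 starts was 6 CpG dinucleotides. Pgr, dim on the array, had 4 CpG. Pgrmc1, bright, had 18, Pgrmc2 20 and Serbp1 21. Nr3c2, however, also dim on its single probe set, had 17. CpG content thus did not separate bright from dim array signals among these 8 genes, which leave out the bright Nr3c1. Signals of different probe sets do not rank transcripts, so this is no statement on abundance. Esr1 had 4 and 7 at its starts, Paqr7 had 7 and 18, and Paqr8 had 13 and 4. The 3 printed below show the CpG-poor dim, the CpG-rich dim and the CpG-rich bright case, 5′ to 3′ on the plus strand, with each CpG in capitals.
Pgr, chr9:8899583-8899832: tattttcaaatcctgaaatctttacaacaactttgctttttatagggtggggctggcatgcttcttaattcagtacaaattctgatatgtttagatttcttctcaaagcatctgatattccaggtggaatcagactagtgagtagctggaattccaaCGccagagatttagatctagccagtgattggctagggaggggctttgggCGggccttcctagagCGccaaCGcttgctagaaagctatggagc
Nr3c2, chr8:76902080-76902329: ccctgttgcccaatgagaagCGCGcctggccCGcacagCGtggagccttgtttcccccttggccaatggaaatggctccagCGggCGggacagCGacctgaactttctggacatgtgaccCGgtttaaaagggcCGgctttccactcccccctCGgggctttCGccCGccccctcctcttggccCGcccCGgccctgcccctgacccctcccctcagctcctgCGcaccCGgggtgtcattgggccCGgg
Pgrmc1, chrX:36597943-36598192: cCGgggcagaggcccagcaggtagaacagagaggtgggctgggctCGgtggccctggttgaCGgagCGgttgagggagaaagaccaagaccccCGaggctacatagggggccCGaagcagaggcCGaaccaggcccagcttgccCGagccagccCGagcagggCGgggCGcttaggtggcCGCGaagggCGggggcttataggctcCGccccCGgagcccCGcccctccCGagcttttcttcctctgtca
The steroid response element shared by Pgr, Nr3c1 and Nr3c2, searched as AGAACA and TGTTCT with any 3 bases between, is its own reverse complement and was in none of the 11 windows and in 0.00913% of all. The shorter TGTTCT, on either strand, was in 3 of the 11, at Pgrmc1 and at both starts of Paqr8, against 16.1% of all. The GC box GGGCGG, on either strand, was in 8 of the 11, at Pgr and Nr3c2 as well as at Pgrmc1, Pgrmc2 and Serbp1, against 32.7% of all. The GC box holds a CpG, so these counts are not independent of the CpG counts. These matches describe letters and not binding.

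The machinery around the receptors was read out from 5 gene lists, each gene by its brightest kept probe set. Of 10512 genes tested 7.42% passed, and 23.7% had an unadjusted p under 0.05. Among relatives of the receptors 11 of 22 genes were above the filter and none passed, with a median of 0.13 against 0.02 over all genes; 3 had an unadjusted p under 0.05. Nenf, a secreted relative of Pgrmc1, had 98.9 and 93.9 in the progesterone arrays and 91.8 and 58.2 in the TGFb1 arrays (0.33 ± 0.22). Paqr5, the third membrane progestin receptor of the Paqr7 group, had 26.3 and 46.8 against 28.3 and 15.95, within the tissue-restricted range. Paqr6, Paqr9, the oestrogen receptor Esr2 and the membrane oestrogen receptor Gper1 were under the filter, with mean signals of 2.95, 9.98, 2.33 and 17.5. The brightest relatives were the retinoid X receptor gene Rxrb (0.09 ± 0.13) and the thyroid hormone receptor gene Thra (0.05 ± 0.16).

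Steroid receptors are held ready for hormone by the heat shock chaperones. All 14 chaperone genes with a probe set were above the filter and none passed, with a median of 0.02 and differences from -0.27 to 0.28; 2 had an unadjusted p under 0.05. The brightest were Hspa8 (-0.11 ± 0.07) and Hsp90aa1 (0.06 ± 0.09). Their probe sets disagreed, with the 4 kept for Hspa8 running from -0.85 to 0.18 and the 3 kept for Hsp90aa1 from -0.28 to 0.06. The cochaperone Fkbp4, which helps carry receptors to the nucleus, was at 0.14 ± 0.13. Of 18 coregulator genes none passed (median 0.14, 5 with an unadjusted p under 0.05), with Nrip1 at -0.11 ± 0.16 and the chromatin remodeller gene Arid1a at 0.12 ± 0.09. For Nrip1, a corepressor, the 6 probe sets ran from -0.32 to 0.72. Of 16 tested genes of steroid metabolism none passed (median -0.05, 3 with an unadjusted p under 0.05). The mitochondrial protein gene Tspo, linked to cholesterol import, was at -0.28 ± 0.13 (adjusted p = 0.260) and Hsd17b10, a dehydrogenase of the mitochondrion, at -0.07 ± 0.12.

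Among genes known to answer glucocorticoids or progestins, 5 rose and 1 fell of 26 tested, with a median of 0.21, and 14 had an unadjusted p under 0.05. Of all genes 2.67% rose and 4.75% fell. The list was drawn up with earlier results of these data known, so its count is no independent evidence. The chemokine receptor gene Cxcr4 had normalised signals of 1338 and 1320 in the progesterone arrays against 782 and 697 in the TGFb1 arrays, a difference of 0.83 ± 0.10 (adjusted p = 0.00413). As deposited its signals were 1313 and 985 against 908 and 760, a difference of 0.45. The transglutaminase gene Tgm2 rose by 0.94 ± 0.15 and the interleukin 7 receptor gene Il7r by 0.60 ± 0.12, and Tgm2 probe sets ran from 0.37 to 1.25. Cish, Stat5a and Sesn1 were the others that passed, at 0.59, 0.54 and -0.41, named because the count is small. The glucocorticoid targets that were named whatever their result did not pass. Tsc22d3, which lies on the X chromosome, was at 0.29 ± 0.10 (adjusted p = 0.152 by limma), the cochaperone Fkbp5 at -0.11 ± 0.18 and the clock gene Per1 at 0.02 ± 0.16. The 2 kept Fkbp5 probe sets ran from -0.37 to -0.11, and the 3 of Tsc22d3 from 0.21 to 0.29. The lowest value of the list was that of Dusp1, -1.52 ± 0.47, which did not pass either (adjusted p = 0.114 by limma). Its signals were 249 and 230 in the progesterone arrays against 377 and 1355 in the TGFb1 arrays, which differed widely from each other. The brightest of the list were Txnip (0.10 ± 0.06) and Nfkbia (-0.41 ± 0.11, adjusted p = 0.064 by limma). The 5 Nfkbia probe sets ran from -0.63 to -0.41. The count was lost without either progesterone array, when none of the list passed, and with the values as deposited 4 fell and none rose. As deposited the medians of the relatives, chaperones, coregulators, response and metabolism genes were 0.21, -0.32, -0.19, -0.12 and -0.29, against -0.22 over all genes.

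**Figure D4:**
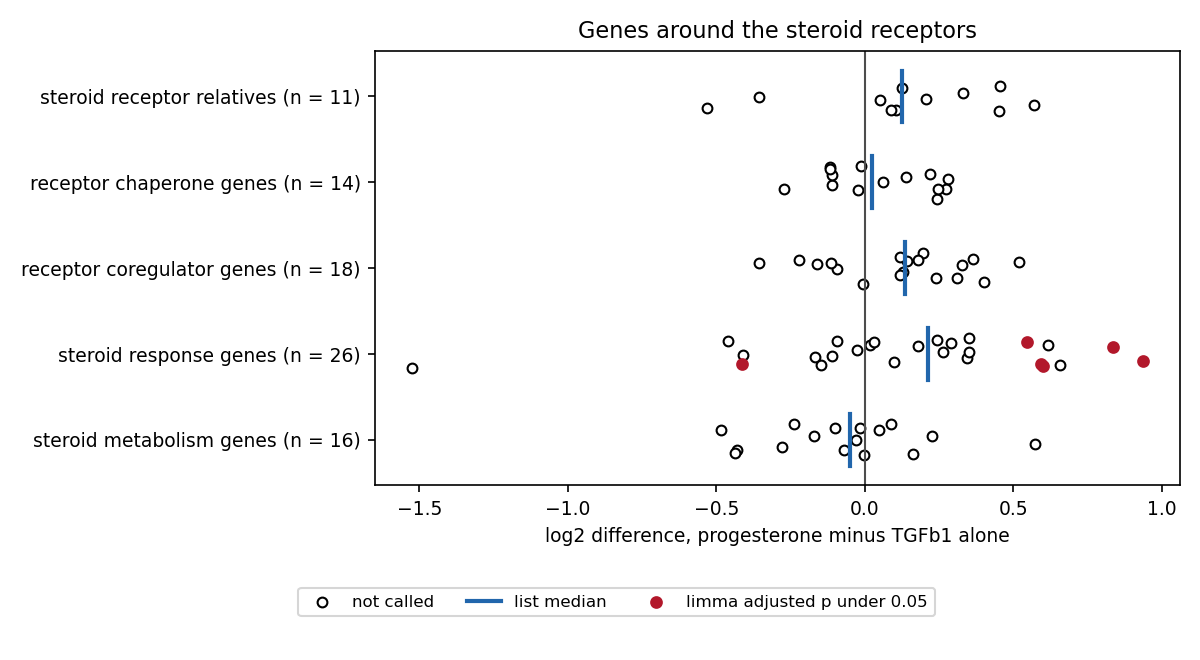
Log2 difference, progesterone minus TGFb1 alone, of each tested gene in the 5 lists around the receptors, by its brightest kept probe set; red points had a limma adjusted p under 0.05, and the blue bar is the list median (0.13, 0.02, 0.14, 0.21 and -0.05 from top to bottom). In this fit called genes are seen in the steroid response list alone, 5 to the right and 1 to the left of 0.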

How the data were processed

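Each of the 4 samples was hybridised to an array of 45101 probe sets. The deposited intensity values are linear; per the submitters' processing notes the authors used MAS5, with no version named, and the scaling is not given in those sources. Array trimmed means differed by up to 1.43 times, above the 5% allowed, so signals were quantile normalised without 64 control probe sets and taken as log2(signal + 16). Probe sets with a mean above the median of all were kept (22518). The test was limma's moderated statistic with an intensity trend (limma 3.58.1, R 4.3.3), Benjamini-Hochberg adjusted over all kept probe sets at 0.05, with 2 residual degrees of freedom. The number of arrays limits the precision. Probe sets under the filter were described with a fit on all 45037. The test was checked on simulated arrays, where changes of 1.5-fold were mostly missed. Changes of 2-fold were also mostly missed with spreads drawn from the fitted prior, and mostly found with each probe set's own fitted spread. With spreads drawn from the fitted prior the share of false calls was close to the threshold. With each probe set's own fitted spread, which was simulated first, more calls were false than the threshold states, so the counts of called probe sets and genes may hold more false calls than 5%.

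Of 34945 probe sets with 1 gene in the platform annotation, 34741 matched a RefSeq gene table (GRCm38.p6). The array's build is unstated, so positions of genes and probe sets are left out. The upstream windows carry the RefSeq positions of their own table. Members and lists were chosen with earlier results of these data known. The grouping by the upper 25%, the marks taken from the tissue-restricted probe sets and the promoter features were chosen after signals were seen. Named genes were all members, up to 3 that passed and the 2 brightest per list, and a fixed set of receptors, chaperones and targets (some not analysed here). Sex-linked genes, cell type markers and Dusp1, the lowest of its list, were named as well. Alternatives were other scalings, pseudocounts (0 and 64), filters, variance models, a replicate block, leaving out each array or X and Y genes, and averaging probe sets per gene.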

Additional observations from a re-analysis of the deposited data

How the results depend on the processing

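No receptor probe set passed the test under any of the 14 alternatives run on them, whose adjusted p ran down to 0.194 (10 were tested in the upper 25% by level and 18 without X and Y genes). Several signs turned. With the values as deposited the difference was -0.20 for Nr3c1 1460303_at, -0.27 for 1421867_at, -0.17 for 1457635_s_at, -0.18 for Pgrmc1, 0.0716 for Pgrmc2 1452882_at, -0.40 for Serbp1 1437280_s_at and -0.0832 for 1418563_at. Scaled to a common trimmed mean it was 0.10 for Nr3c1 1453860_s_at, 0.27 for Pgrmc2 1452882_at, -0.11 for Serbp1 1437280_s_at, 0.0338 for Paqr8 1435246_at and 0.0446 for 1444468_at. Leaving out each array in turn, values ran from -0.0936 to 0.26 for Nr3c1 1421867_at, -0.34 to 0.17 for 1453860_s_at, -0.17 to 0.16 for Pgrmc2 1452882_at, -0.13 to 0.0257 for Paqr7 1460674_at, -0.0124 to 0.050 for Serbp1 1437280_s_at and -0.00081 to 0.23 for Paqr8 1428958_at.

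With no filter 534 probe sets, 319 genes and 2 steroid response genes passed, and with no intensity trend 470, 281 and 1, against 1373, 780 and 6. Without each array in turn these counts ran from 328 to 1750, 201 to 1011 and 0 to 8, those of chaperone genes from 0 to 1 and of steroid metabolism genes from 0 to 1. The lowest count of probe sets was without progesterone replicate 2, with 567 without progesterone replicate 1. With the replicate number as a block 3100 probe sets and 1688 genes passed, with 12 steroid response genes, 3 coregulator genes and 3 steroid metabolism genes. Deviations of same-numbered arrays correlated at r = 0.17 across 22518 probe sets, and the labels give no shared batch, so the numbers were not taken as pairs. The cause of these shifts was not tested. Leaving out Cish, Stat5a and Socs1, chosen after seeing the data, left 4 steroid response genes. The prior degrees of freedom were infinite with the values as deposited, against 5.79, so each probe set's own spread was not used there. Dim signals have no stated limit of detection.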
